A study of Drosophila melanogaster with 4 samples.

Results

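The respiratory chain genes of the fly nucleus were compared between ovarian tumors and control ovarian tissue of adult female Drosophila melanogaster. Members were all rows whose FlyBase symbol begins with ND-, UQCR-, COX4 to COX8, ATPsyn or SdhA to SdhD, which gave 87 of the 17773 genes listed. By their symbols they fall to complex I (40 genes), complex II (7), complex III (9), complex IV (16) and complex V, the ATP synthase (15). Of these, 24 carry an L for "-like" at the end of the symbol, at times with a number after it, and are called -like members here, and the other 63 are called ubiquitous members. In flies such -like copies of respiratory subunits are mostly known as testis-expressed, which was not measured here.

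The tumor genotype was tj-GAL4 with tubulinGal80ts, UAS-aPKCΔN and UAS-RasV12, and the control genotype was tj-GAL4 with tubulinGal80ts alone, so that both carried the driver and the repressor. The tj driver acts in somatic cells of the gonad, follicle cells among them, and is not active in the germline. All flies were kept for 20 days at 29 °C, a temperature at which the Gal80 repressor is inactive. Tumors were dissected from the ovary, control tissue was limited to follicles before yolk uptake, and all tissue was taken apart with protease from Bacillus licheniformis and filtered to enrich follicle epithelium. There were 2 libraries of each genotype, which the series calls biological replicates without saying which animals were pooled.

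The respiratory chain sits in the inner mitochondrial membrane. Complex I and complex II pass electrons from NADH and succinate to ubiquinone, complex III passes them to cytochrome c and complex IV to oxygen, while complexes I, III and IV pump protons that drive the ATP synthase. All complexes but complex II mix subunits of the nuclear and the mitochondrial genome. In the fly ovary, mitochondria are best known for their massive build-up in germ cells during oogenesis, and follicle cells carry them too.

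The libraries held 42739528 to 47512735 estimated counts in tumor and 41248098 to 50971937 in control. The transgenes' genes checked the labels. aPKC had 1138 and 1641 counts per 1000000 (CPM, libraries scaled with TMM factors) in tumor against 47.5 and 50.9 CPM in control, and Ras85D had 2124 and 2427 CPM in tumor against 16.8 and 4.399 CPM in control. Markers of follicle cells were present in both groups and summed to 2133 and 2226 CPM in tumor and 854 and 982 CPM in control; Fas3 and fax rose, while tj and upd1 fell. All 6 germline markers with a row fell, with sums of 11.9 and 18.9 CPM in tumor and 387 and 447 CPM in control, and osk was listed at 0 in both tumor libraries. Their own targets held 0.802% to 24.9% of their loci, and of their locus sums 5 fell, those of bam, vas and aub by 0.62, 0.85 and 0.87, and 1, that of Rbp9, rose by 0.52. Of 5 tested muscle markers Mlc2, Tm2 and Mp20 fell, and the untested Act57B had fewer than 3 counts in every library. Sums over all 6 muscle markers were 91.6 and 49.6 CPM in tumor and 153 and 276 CPM in control. The target of Tm2 held 2.29% of its locus, whose sum differed by -0.07 and did not pass. Of 5 hemocyte markers Hml, NimC1, NimC4 and eater rose, with sums over all 5 of 186 and 159 CPM in tumor against 76.9 and 47.2 CPM in control. The fifth, srp, had 27.5 and 16.1 CPM in tumor against 65.4 and 40.3 CPM in control and did not pass, while its locus sum differed by -1.37 and was called lower. Neither of 2 tested fat body markers passed. Among all tested genes 21.2% fell and 23.4% rose. The part of these cell types in the results below was not tested, and in such bulk samples fewer cells of a type cannot be told apart from less RNA per cell.

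One property of the files bears on every value. Each target that reads were assigned to spans a gene with its introns and 2000 bases on either side, so that neighbouring targets overlap. For 72 of the 87 members every annotated exon base lies within another gene's target as well (82.8% of members, against 66.9% of all annotated genes). Reads at such a locus can go to either target. A second value, the locus sum, was therefore made by adding the counts of all targets that overlap an exon of the gene.

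Many members had few or no counts of their own. Of 87 members 49 passed the filter on low counts and were tested, 45 ubiquitous and 4 -like, and 38 were not. The 18 ubiquitous members without a test were ND-19, ND-23, ND-30, ND-42, ND-51, ND-B15, ND-B17, ND-B18, ND-B8 and ND-SGDH of complex I, SdhB of complex II, COX5B, COX6B, COX7A and COX7C of complex IV, and ATPsynC, ATPsynCF6 and ATPsyndelta of complex V. Among them are subunits that no working chain lacks, such as SdhB, the iron-sulfur subunit of succinate dehydrogenase, and ATPsynC, whose product forms the rotor ring of the synthase. Of these 18, 14 were listed at 0 in all 4 libraries and the highest value among the others was 42.2 counts. Their locus sums held between 2926 and 100631 counts in every library. A locus sum takes the whole count of each overlapping target, and how many of those reads came from the members' own exons was not measured. At ATPsynC the target with the most counts was that of RNaseP:RNA, and at SdhB it was that of koi. A listed 0 therefore cannot be read as absence of expression. In a fit of locus sums with a filter of their own, added after the data were seen, 12 of the 18 loci were lower in tumor and 1, that of COX7C, was higher, where 27.5% and 27.9% of all locus sums were called.

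**Figure D1:**
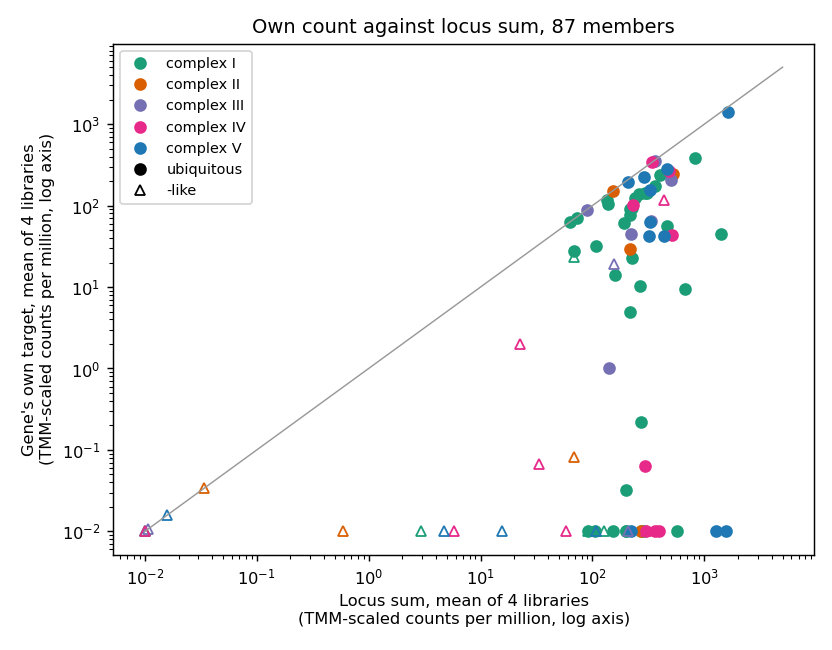
Each point is 1 of the 87 members, with the locus sum on the x axis and the count of the gene's own target on the y axis, both as the mean of 4 libraries in TMM-scaled CPM on log axes, and values under 0.01 are drawn at 0.01. Filled circles are ubiquitous and open triangles -like members, points on the diagonal hold all reads of their locus, and the 18 untested ubiquitous members lie at the bottom under locus sums of at least 2926 counts.

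Of 49 tested members 18 fell and 3 rose in tumor. Falls came to 36.7% of tested members, against 21.2% of all 9402 genes tested, and rises to 6.12%, against 23.4% of all genes (edgeR's quasi-likelihood test with Benjamini-Hochberg adjustment over all genes, threshold 0.05). The median log2 fold change of tumor over control was -0.32 over tested members and 0.02 over all tested genes. How libraries were scaled moved this split. It was 23 lower and 2 higher under upper-quartile factors (25% and 20.6% of all genes), 13 and 5 under library totals (17.6% and 26%), and 12 and 7 on log2(TPM + 1) (16.7% and 35.2%). Scaling on 55 cytoplasmic ribosomal protein genes turned it to 2 lower and 17 higher (9.59% and 47.1% of all genes), and moved the median of all genes up by 0.65. DESeq2 called 24 members lower and 5 higher (25.9% and 27.1% of all genes). Relative to the median of all genes, the members' median was -0.33 under TMM, library totals and ribosomal scaling alike. This follows from the construction, since these scalings shift all genes by nearly the same amount, and it is no separate check. Of the 18 falls 4 remained without control 1 and 7 without control 2, where 7.62% and 9.56% of all genes were lower and 11% and 12.4% higher. Without tumor 1 there remained 13 (15.3% lower and 14.9% higher among all genes), and without tumor 2 there remained 12 (15.2% in either direction). Of all genes, 16.2% were lower and 34.5% higher on log2(TPM + 0.1), 16.5% and 34.3% on log2(TPM + 5), 10.1% and 19.4% on unfiltered log2(TPM + 1), and 13.9% and 16.3% with replicate number as a block. Of locus sums, 26 of the same 49 were lower and 7 higher, where 28.3% and 29.2% of all locus sums were called, and 13 of the 18 falls were also falls of the locus sum. Other targets can make up most of such a sum, as at ND-15, whose own target held 3.25% of its locus.

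**Figure D2:**
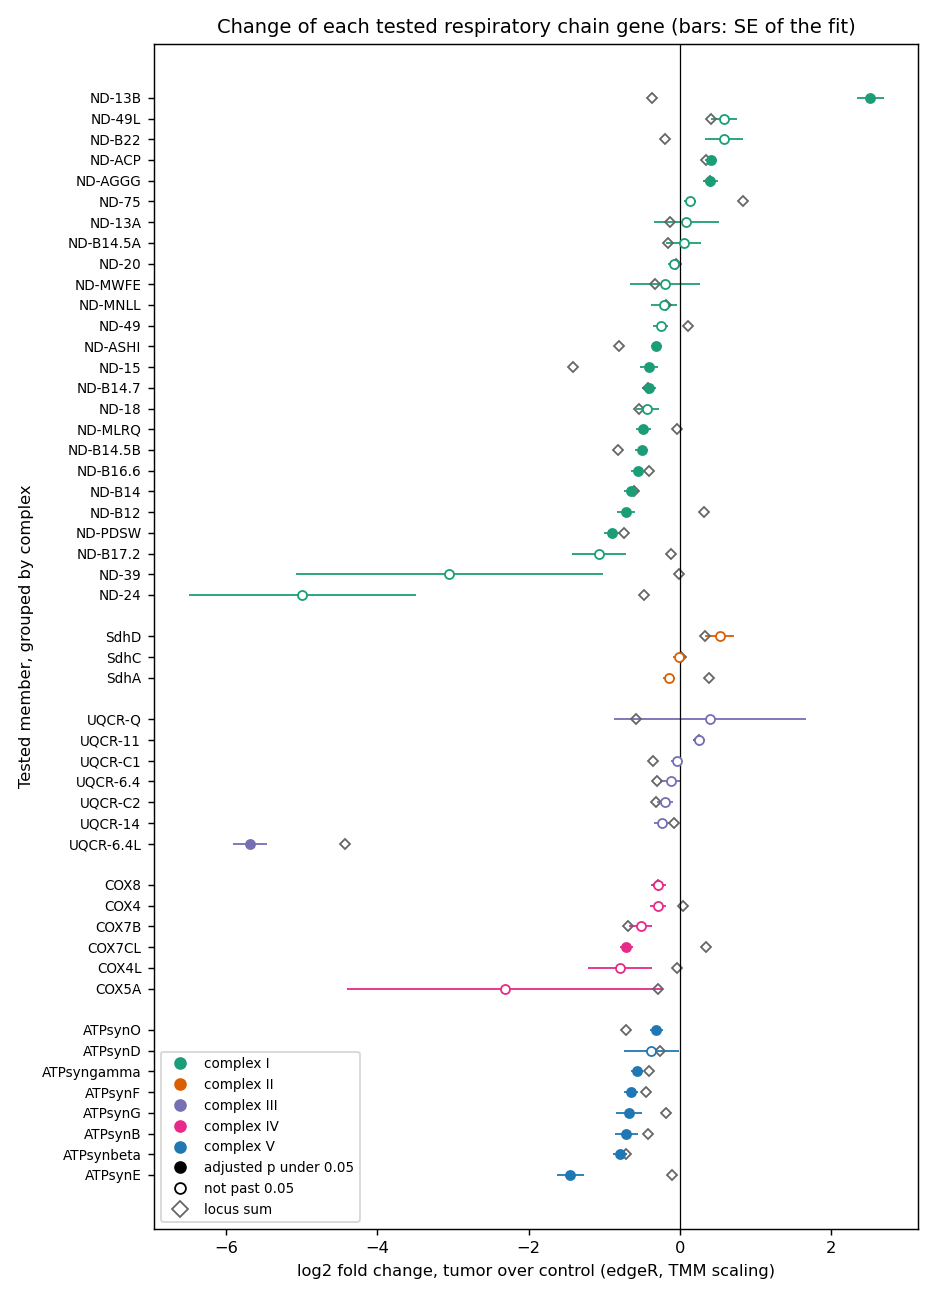
The x axis gives the log2 fold change of tumor over control for the 49 tested members, listed down the page by complex, with circles for the gene's own count, bars for the SE of the fit and filled circles for adjusted p under 0.05. Open diamonds are locus sums, and they part from the circle most for ND-13B, ND-39 and ND-24.

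Complex V stood lowest of the 5 complexes. The ATP synthase makes ATP in its catalytic head as protons pass its membrane rotor. Of 8 tested ubiquitous members 7 fell and none rose under TMM scaling, where 21.2% of all genes fell and 23.4% rose. Their median log2 fold change was -0.66. Under scaling on ribosomal protein genes 1 fell, where 9.59% of all genes fell, and the median was -0.01. Relative to the median of all genes the complex stood at -0.68 under both, since a change of scaling shifts all genes nearly alike. ATPsynbeta, the catalytic subunit of the head (4 exonic stretches, FBgn0010217, chromosome 4, 1031484 to 1034917, plus strand, BDGP6.54), was the member with the most counts. It had 1078 and 1012 CPM in tumor, against 1842 and 1779 CPM in control. Both tumor libraries lay far under both control libraries, and the fitted log2 difference was -0.79 ± 0.09 (± gives the SE from the fit, n = 2 in each group, edgeR adjusted p = 0.0054). Its target held 87.2% of the counts of its locus, and the locus sum fell by 0.72.

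Of the other tested head and stalk genes ATPsyngamma, ATPsynO and ATPsynB fell under TMM scaling and ATPsynD did not pass. ATPsyngamma, for the central rotor shaft, had 233 and 216 CPM in tumor and 331 and 335 CPM in control (-0.57 ± 0.08, edgeR adjusted p = 0.0094). ATPsynO, for the subunit that joins the head to the outer stalk, had 193 and 207 CPM in tumor against 240 and 257 CPM in control (-0.32 ± 0.09, edgeR adjusted p = 0.044). Groups did not overlap for either gene, which held for 79.6% of all tested genes. ATPsynB, an outer stalk gene, had 133 and 103 CPM in tumor and 202 and 184 CPM in control (-0.71 ± 0.15, edgeR adjusted p = 0.023). ATPsynD, another outer stalk gene, did not pass, and its tumor libraries differed from each other, with 24.5 and 49.7 CPM in tumor against 48.3 and 48.2 CPM in control.

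The small membrane subunits gave the widest range. ATPsynF had 157 and 146 CPM in tumor and 250 and 224 CPM in control (-0.65 ± 0.10, edgeR adjusted p = 0.0098), with 93.3% of its locus in its own target. ATPsynE had 22.1 and 23.3 CPM in tumor against 69.8 and 54.3 CPM in control, the largest fall of the complex (-1.45 ± 0.17, edgeR adjusted p = 0.0063). Its target held 13.1% of its locus, and the locus sum differed by -0.10 and did not pass. ATPsynG had 42.7 and 54.9 CPM in tumor and 84.2 and 72.0 CPM in control (-0.68 ± 0.17, edgeR adjusted p = 0.037), and its locus sum did not pass either.

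**Figure D3:**
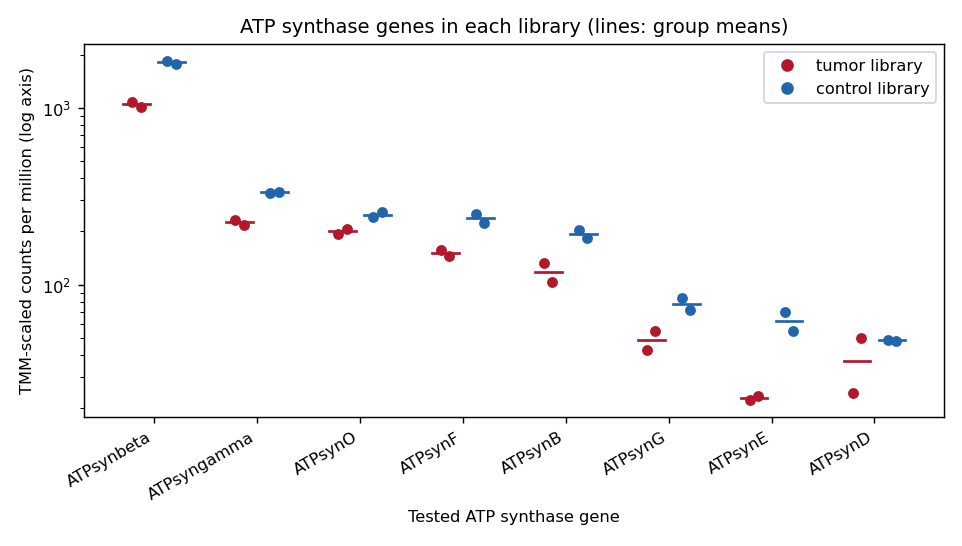
TMM-scaled CPM on a log axis for the 8 tested ATP synthase genes, with 2 tumor libraries left of 2 control libraries for each gene and lines at the group means. Tumor lies under control without overlap for all but ATPsynD, where 1 tumor library reached 49.7 CPM. Groups did not overlap, in either direction, for 79.6% of all tested genes. Under ribosomal protein scaling 1 of them, ATPsynE, was called lower.

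Locus sums of 5 of the 7 called genes fell as well, all but ATPsynE and ATPsynG. Without control 1 the calls of ATPsynbeta and ATPsynE remained, and without control 2 those of ATPsynbeta, ATPsynE and ATPsynF. Without tumor 1 there remained 5, and without tumor 2 there remained 6. The call of ATPsynO ended without any 1 of the 4 libraries.

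Ratios between complexes within a library do not depend on scaling. Summed counts of complex V over those of complexes I to IV, ubiquitous members alone, were 0.476 and 0.483 in tumor and 0.671 and 0.668 in control. ATPsynbeta alone made up 57.2% and 55.8% of the complex V counts in tumor and 60.0% and 60.2% in control, so these ratios rest largely on that gene. Complex V over complex III was 2.50 and 2.57 in tumor, against 3.78 and 3.91 in control. The gap was smaller for complex V over complex IV, with 2.68 and 3.07 in tumor and 3.45 and 3.53 in control. Each of these ratios was lower in each tumor library than in each control library, and with 2 against 2 libraries an exact permutation test could not go below p = 0.333. For single genes, ATPsynbeta over SdhA was 4.46 and 4.47 in tumor and 7.003 and 6.987 in control. ATPsynbeta over COX8 was 3.28 and 3.48 in tumor, against 4.68 and 4.90 in control. Summed over every target at the same loci, complex V over complex III was 3.68 and 3.71 in tumor and 4.72 and 4.84 in control.

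Complex I moved in both directions. It takes electrons from NADH in a peripheral arm that carries the redox centres, and its membrane arm pumps protons. Of 24 tested ubiquitous members 9 fell and 3 rose, where 21.2% of all genes fell and 23.4% rose. Their median log2 fold change of -0.36 turned to 0.29 under ribosomal protein scaling, where 7 rose and none fell and 47.1% of all genes rose. Relative to the median of all genes the complex stood at -0.38 under both, again because scaling shifts all genes nearly alike. Of the falls 1 remained without control 1, namely ND-PDSW, and 2 without control 2, namely ND-PDSW and ND-B14. Without tumor 2 there remained 4.

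The core of the peripheral arm has 7 subunits encoded in the nucleus, a list taken up after the values were seen. Of these 4 were tested. None was called by edgeR under TMM scaling, and DESeq2 called ND-24 lower (-5.01, adjusted p = 0.010). ND-75, the largest of them, had 409 and 390 CPM in tumor and 367 and 360 CPM in control (0.13 ± 0.08, edgeR adjusted p = 0.23). ND-20 had 225 and 244 CPM in tumor and 245 and 249 CPM in control. ND-49 had 135 and 116 CPM in tumor, against 151 and 148 CPM in control. None of these 3 passed, and the locus sum of ND-75 rose by 0.84. The fourth, ND-24, had 2.7 and 73.6 counts in tumor and 625 and 1887 in control, a wide scatter within each group that left it short of the threshold (-4.99 ± 1.502, edgeR adjusted p = 0.056). Its locus sum fell by 0.47, while those of ND-20 and ND-49 did not pass. The core genes ND-23, ND-30 and ND-51 were not tested. In the later fit of locus sums, those of ND-23 and ND-30 were lower, with log2 fold changes of -0.57 and -0.28. ND-23 was listed at 0 in every library and ND-30 at no more than 42.2 counts, so these sums are counts of other targets. The target with the most counts was that of spn-E at ND-23 and that of BtbVII at ND-30. The locus sum of ND-51 differed by -0.16 and did not pass.

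None of the genes called lower by edgeR under TMM scaling was among the 7 core genes of the peripheral arm, though not all core genes could be tested. ND-PDSW, of the membrane arm (FBgn0021967, chromosome 2L, 3466157 to 3467334, plus strand), had 78.5 and 66.4 CPM in tumor and 133 and 136 CPM in control. It showed the largest called fall of complex I (-0.89 ± 0.11, edgeR adjusted p = 0.0062), and its locus sum fell by 0.74. ND-B12, also of the membrane arm, had 76.5 and 63.0 CPM in tumor and 118 and 111 CPM in control (-0.72 ± 0.12, edgeR adjusted p = 0.015), but its locus sum rose by 0.32. ND-B14 had 87.2 and 95.8 CPM in tumor, against 149 and 136 CPM in control (-0.64 ± 0.09, edgeR adjusted p = 0.0092), with 86.7% of its locus in its own target. ND-MLRQ was counted in complex I by its symbol alone and named by its level. It had 125 and 113 CPM in tumor and 174 and 158 CPM in control (-0.48 ± 0.10, edgeR adjusted p = 0.020). Its locus sum differed by -0.05 and did not pass. The other falls were ND-B16.6, ND-B14.5B, ND-B14.7, ND-15 and ND-ASHI, between -0.56 and -0.31, each with a locus sum that also fell. Their own targets held 46.1%, 42.2%, 96.5%, 3.25% and 52.5% of these loci, in that order. The locus sum of ND-15 fell by 1.41, against 0.41 for its own count, so it mostly reads other targets.

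The 3 rises differed in how far they can be read. ND-AGGG, a membrane arm gene (FBgn0058002, chromosome 3L, 24976254 to 24977118, plus strand), is 1 of 2 tested members with no exon inside any other target. It had 74.3 and 68.9 CPM in tumor and 53.4 and 55.2 CPM in control (0.40 ± 0.10, edgeR adjusted p = 0.036), a call that ended without any 1 of the 4 libraries. ND-ACP, the mitochondrial acyl carrier protein, which serves fatty acid synthesis as well as complex I, had 204 and 188 CPM in tumor and 149 and 147 CPM in control (0.41 ± 0.08, edgeR adjusted p = 0.019). Its locus sum rose by 0.34, and its call ended without tumor 1, control 1 or control 2. ND-13B had 57.7 and 49.6 CPM in tumor, against 10.1 and 8.68 CPM in control, a log2 difference of 2.52 ± 0.18 (edgeR adjusted p = 0.0024). Its locus sum fell by 0.38, and the neighbour CG11811, whose target overlaps its exons, had 37.5 and 37.8 CPM in tumor and 75.4 and 70.1 CPM in control.

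Complexes II and III had no ubiquitous member called under TMM scaling. With 3 and 6 members tested their medians were -0.01 and -0.08, and under ribosomal protein scaling 3 and 4 members rose, where 47.1% of all genes rose. In complex II, which is also an enzyme of the citrate cycle, SdhA, the flavoprotein, had 242 and 226 CPM in tumor and 263 and 255 CPM in control (-0.14 ± 0.08, edgeR adjusted p = 0.21). The membrane anchor gene SdhC had 152 and 148 CPM in tumor and 157 and 144 CPM in control (-0.01 ± 0.08, edgeR adjusted p = 0.94), and the groups overlapped. SdhD, the other anchor gene, had 30.9 and 37.8 CPM in tumor, against 26.0 and 21.8 CPM in control (0.52 ± 0.19, edgeR adjusted p = 0.085), and DESeq2 called it higher (adjusted p = 0.049). The locus sums of SdhA and SdhD rose, by 0.39 and 0.33. At the unadjusted level 30 of the 49 tested members had p under 0.05, where 53.9% of all tested genes did, so a missed threshold does not show equal expression.

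In complex III, UQCR-C2, a core protein, had 340 and 307 CPM in tumor and 394 and 351 CPM in control (-0.20 ± 0.11, edgeR adjusted p = 0.19), with 95.8% of its locus in its own target. UQCR-C1, the other core protein, had 210 and 202 CPM in tumor and 211 and 213 CPM in control. UQCR-14 had 62.0 and 55.7 CPM in tumor, against 71.0 and 68.3 CPM in control. UQCR-11, whose exons also lie in no other target, had 97.2 and 96.1 CPM in tumor and 84.02 and 78.04 CPM in control, and did not pass (0.25 ± 0.08, edgeR adjusted p = 0.065). Locus sums of UQCR-6.4, UQCR-C1, UQCR-C2 and UQCR-Q fell, with log2 fold changes between -0.58 and -0.30.

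Complex IV, cytochrome c oxidase, also had no ubiquitous member called under TMM scaling, though all 4 tested log2 fold changes were below 0. DESeq2 called 3 of them lower, COX4, COX7B and COX8, where 25.9% of all genes were lower. Under upper-quartile factors 3 were lower, where 25% of all genes were. By locus sum 3 were lower, COX5A, COX7B and COX8, where 28.3% of all locus sums were, and that of COX4 differed by 0.03 and did not pass. Under ribosomal protein scaling 3 were above 0 and 2 rose, where 47.1% of all genes rose. COX8 had 328 and 291 CPM in tumor and 393 and 363 CPM in control (-0.29 ± 0.10, edgeR adjusted p = 0.085). COX4 had 256 and 221 CPM in tumor, against 286 and 299 CPM in control (-0.29 ± 0.10, edgeR adjusted p = 0.085), and COX7B had 88.4 and 78.1 CPM in tumor against 134 and 104 CPM in control. Each of these genes had both tumor libraries under both control libraries, but groups did not overlap, in either direction, for 79.6% of all tested genes. The locus sums of COX8 and COX7B fell by 0.29 and 0.68. COX8 held nearly all counts of its locus, yet its exons lie wholly inside the target of the V-ATPase gene VhaM9.7-b, listed at 20.4 and 3.16 counts in tumor and 3.70 and 0 in control. Reads of both genes may thus stand under COX8.

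Some members were read differently in 2 libraries of the same group. COX5A had 1417 counts in tumor 1 and was listed at about 0 in tumor 2, against 3029.5 and 3469 counts in control. ND-39 had 1159 counts in tumor 1 and about 0 in tumor 2, against 4091 and 4733 in control. Neither passed (edgeR adjusted p = 0.41 for COX5A and 0.28 for ND-39), while the locus sum of COX5A fell by 0.29 and that of ND-39 differed by -0.01 and did not pass.

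**Figure D4:**
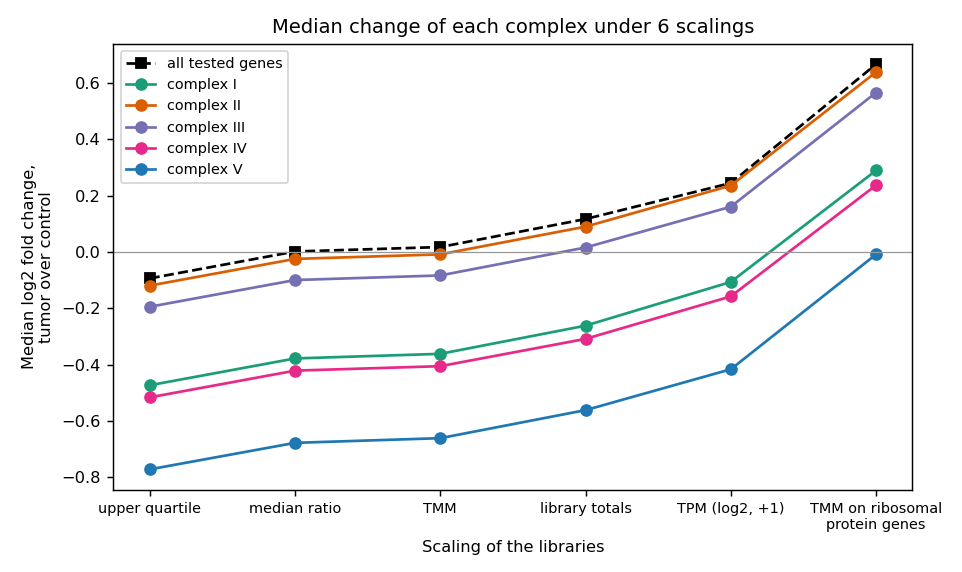
Median log2 fold change of tumor over control for the tested ubiquitous members of each complex (circles) and for all tested genes (squares, dashed) on the y axis, under 6 ways of scaling the libraries on the x axis. A change of scaling shifts all genes by nearly the same amount, so the lines run nearly in parallel by construction. Complex V is lowest in each and at -0.01 under ribosomal protein scaling, and complex II is nearest to all genes.

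Counts per kilobase of annotated exon allow levels to be compared between genes, with the limit that reads may belong to neighbours. By the mean of the 4 libraries COX8 was the highest of the tested members, with 640 and 568 CPM per kilobase in tumor and 767 and 707 in control. ATPsynbeta came next, with 452 and 424 CPM per kilobase in tumor and 772 and 746 in control. COX8 lay above ATPsynbeta in both tumor libraries, and ATPsynbeta lay above COX8 in both control libraries. ATPsynF had 256 and 237 CPM per kilobase in tumor and 407 and 365 in control. At the other end UQCR-Q had 1.38 and 0.961 CPM per kilobase in tumor and 0.114 and 1.67 in control, with 0.742% of its locus in its own target.

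Few -like members had counts of their own in either genotype. Of 24 members 20 were not tested, none of which had more than 9.79 counts in any library, and 13 of those were listed at 0 throughout. Because 9 of the 20 lie at loci with at least 1000 counts in every library, a low value there does not show that the gene was off. For 6 the whole locus held fewer than 10 counts in each library, namely ND-20L, ND-24L, SdhCL, UQCR-14L, COX6CL and ATPsynGL, so that next to no reads stood under a neighbour's name either. Of the testis markers 4 of 8 were under 3 counts in every library, and bb8, the 1 that rose among 3 tested, had 144 and 157 CPM in tumor and 20.1 and 21.0 CPM in control.

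The 4 tested -like members were ND-49L, UQCR-6.4L, COX4L and COX7CL, of which 2 fell and none rose under edgeR with TMM scaling, where 21.2% of all genes fell and 23.4% rose. UQCR-6.4L (FBgn0262842, chromosome 3L, 16566750 to 16567300, plus strand) had 31.9 and 36.4 counts in tumor, against 1537 and 1817 in control. The fitted log2 difference was -5.69 ± 0.23 (edgeR adjusted p = 0.0012), the largest called fall among all members, and it held when any 1 library was left out. Its ubiquitous partner UQCR-6.4 had 2009 and 2017 counts in tumor and 2014 and 2155 in control and did not pass (-0.13 ± 0.13, edgeR adjusted p = 0.49). The ratio of UQCR-6.4L to UQCR-6.4 was 0.0159 and 0.0180 in tumor and 0.763 and 0.843 in control. UQCR-6.4L lies within the span of Mipp1 (3L, 16563448 to 16573334, minus strand), which had 800 and 435 counts in tumor and 10346 and 13010 in control. The locus sum fell by 4.43, and whether the change belongs to UQCR-6.4L, to Mipp1 or to both cannot be told apart.

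COX7CL shows the same limit within the family. It lies on chromosome 2R from 10050348 to 10050874, just beyond COX7C at 10048353 to 10050066, and each gene's exons fall in the other's target. COX7CL was listed at 4584 and 3825 counts in tumor and 6067 and 6994 in control (-0.71 ± 0.09, edgeR adjusted p = 0.0069), while COX7C, the ubiquitous gene, was at 0 in all 4 libraries. How many of these reads came from COX7C cannot be told apart. The call ended without control 1, and the locus sum, which includes oys, rose by 0.34. COX5B and COX5BL share a locus in the same way, and both were listed at 0.

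ND-49L had 1478 and 1139 counts in tumor and 751 and 909 in control, just short of the threshold (0.58 ± 0.17, edgeR adjusted p = 0.053). It was called higher by DESeq2 (adjusted p = 0.017), under library totals, under ribosomal protein scaling and on log2(TPM + 1), and its locus sum did not pass. ND-49L over ND-49 was 0.227 and 0.219 in tumor and 0.123 and 0.126 in control. ND-49L lies within the span of the protease gene Fur1, which had 62.2 and 37.2 CPM in tumor and 39.1 and 40.4 CPM in control. COX4L had 72.1 and 64.0 counts in tumor, against 91.1 and 136 in control (-0.79 ± 0.43, edgeR adjusted p = 0.20). COX4L over COX4 was 0.00582 and 0.00643 in tumor and 0.00792 and 0.00931 in control.

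**Figure D5:**
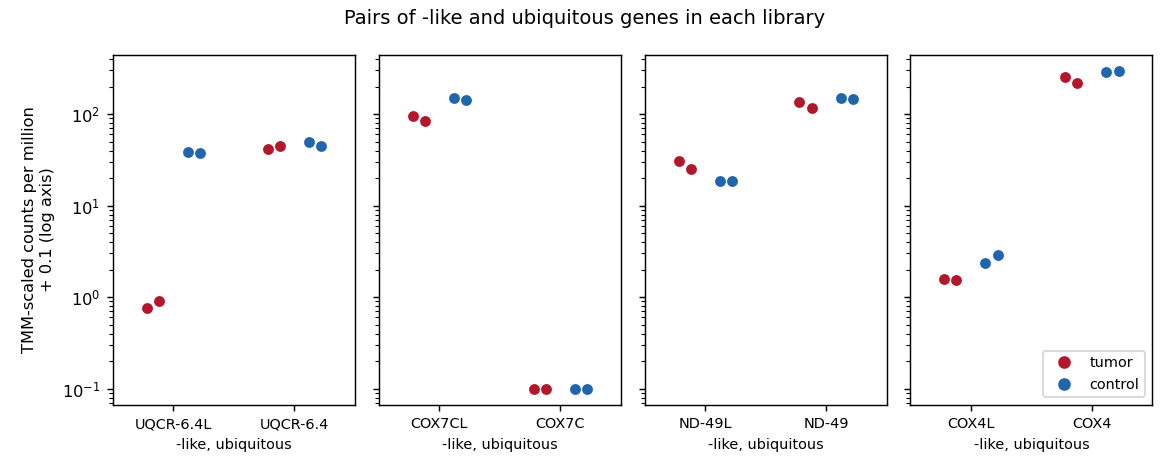
TMM-scaled CPM plus 0.1 on a log axis for 4 pairs of a -like gene (left) and its ubiquitous partner (right), with 2 tumor libraries left of 2 control libraries for each gene. UQCR-6.4L is far lower in tumor while the groups overlap for UQCR-6.4, and COX7C stands at the bottom because it was listed at 0 in all 4 libraries.

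Some subunits of the chain carry other symbols. Of 9 such genes 5 were tested, and blw, levy, Cyt-c1, sun and Cyt-c-p all fell, where 21.2% of all genes fell, with a median log2 fold change of -0.63 that was 0.01 under ribosomal protein scaling. Of their locus sums those of blw, levy and Cyt-c1 were lower, while those of sun and Cyt-c-p differed by -0.22 and -0.23 and did not pass. The gene blw encodes the alpha subunit, the partner of ATPsynbeta in the catalytic head. It had 911 and 838 CPM in tumor and 1330 and 1381 CPM in control (-0.63 ± 0.09, edgeR adjusted p = 0.0095). The gene levy, for a subunit of complex IV, had 50.7 and 35.6 CPM in tumor, against 94.9 and 101 CPM in control (-1.18 ± 0.20, edgeR adjusted p = 0.013), and Cyt-c1, the cytochrome of complex III, had 132 and 114 CPM in tumor against 173 and 180 CPM in control (-0.52 ± 0.10, edgeR adjusted p = 0.019). The calls of blw, levy and Cyt-c1 ended without control 1 or control 2. RFeSP, ox, cype and Cyt-c-d were at 0 in all libraries.

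Carriers of the inner membrane were called in both directions. Of 4 tested carrier genes 2 fell and 1 rose, where 21.2% of all genes fell and 23.4% rose. The adenine nucleotide carrier gene sesB, which exchanges ADP for ATP across the inner membrane, had 1065 and 992 CPM in tumor, against 2569 and 2542 CPM in control (-1.31 ± 0.09, edgeR adjusted p = 0.0023). Its paralog Ant2 (X, 10778954 to 10786907) spans nearly all of sesB (X, 10780893 to 10786958) on the same strand. Ant2 had 124 and 114 CPM in tumor and 50.6 and 63.8 CPM in control (1.06 ± 0.14, edgeR adjusted p = 0.0080). Its target held 3.91% of its locus, and the locus sum of Ant2 fell by 1.06, since it takes in sesB. The calls of sesB and Ant2 held when any 1 library was left out. Whether the rise belongs to Ant2 or to the way reads were split with sesB cannot be told apart. Mpcp2, a phosphate carrier gene, fell by 0.75.

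Of 12 citrate cycle genes 6 fell and 1 rose, with a median of -0.35 that was 0.29 under ribosomal protein scaling, where 5 rose and 1 fell. Of all genes 21.2% fell and 23.4% rose under TMM scaling, and 9.59% fell and 47.1% rose under ribosomal protein scaling. Succinyl-CoA synthetase, the enzyme before complex II in the cycle, comes in forms that differ in the beta subunit. ScsbetaA had 170 and 156 CPM in tumor and 344 and 339 CPM in control (-1.07 ± 0.08, edgeR adjusted p = 0.0028). ScsbetaG moved the other way, with 71.0 and 74.3 CPM in tumor and 24.0 and 22.6 CPM in control (1.64 ± 0.12, edgeR adjusted p = 0.0025). Locus sums of ScsbetaA and ScsbetaG went in those directions too, by -1.38 and 0.40, with 67.5% and 36.7% of their loci in their own targets. The ScsbetaA sum takes in the target of the germline marker osk, at 0 in both tumor libraries against 125 and 265 CPM in control. How much of its fall came from osk was not tested. Mdh2, the malate dehydrogenase gene, fell by 0.76. These 3 calls held when any 1 library was left out.

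Of 9 genes for mitochondrial gene expression and biogenesis srl, PolrMT, mtSSB and ewg fell and TFAM rose, where 21.2% of all genes fell and 23.4% rose. TFAM, for a protein that packs mitochondrial DNA, had 38.5 and 159 counts in tumor and 0 in both control libraries, but held 0.715% of its locus, whose sum fell by 0.34. The gene srl, the fly relative of the PGC-1 coactivators that drive mitochondrial gene expression in mammals, had 136 and 137 CPM in tumor and 332 and 288 CPM in control (-1.18 ± 0.10, edgeR adjusted p = 0.0033), and its locus sum fell by 0.78. PolrMT, for the mitochondrial RNA polymerase, fell by 0.63, but stood at 0.02 under ribosomal protein scaling. The gene mtSSB, for a DNA-binding protein of mitochondrial replication, fell by 2.69 while its locus sum differed by 0.13 and did not pass. Its call ended without tumor 1, tumor 2 or control 1. Among 7 tested assembly and upkeep genes 3 fell and none rose, where 21.2% of all genes fell and 23.4% rose. They were the copper chaperone gene Scox, the mitofusin gene Marf and Sdhaf3, at -0.33, -0.37 and -0.50. All 3 were above 0 under ribosomal protein scaling, and each call ended without at least 3 of the 4 libraries in turn.

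The mitochondrial genome's own subunits could not be read gene by gene. Of its 13 protein-coding genes 8 were at 0 in all libraries, each with at least 9 overlapping targets. Summed over the 13 genes there were 3272 and 1133 CPM in tumor and 2179 and 3119 CPM in control, and the groups overlapped. Of 5 tested, 1 rose and 1 fell, where 23.4% of all genes rose and 21.2% fell. mt:ND3 had 613 and 2978 counts in tumor and 0 in control, and mt:ND5 was at about 0 in tumor, against 5024 and 12341 counts in control. Their locus sums differed by -1.16 and -0.97, both lower.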

How the data were processed

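The 4 libraries were grouped by the sample titles. Quantification was with kallisto, per the submitters' processing notes, with version, index, genome build and strand handling not given in the sources used here. The authors deposited estimated counts per gene and, per the file headers, target length, effective length and TPM, which are counts over effective length scaled to 1000000 per library. Of 17668 annotated genes, 17551 (99.3%) have a target length equal to the span in the Ensembl 115 annotation of BDGP6.54 plus 4000 bases, from which coordinates and exon lengths were taken. The locus sum adds the counts of every target that overlaps an exon of a gene. Counts, rounded to integers, were fitted with edgeR 4.0.16 under R 4.3.3 (filterByExpr, TMM, glmQLFit, glmQLFTest, group alone, two-sided, Benjamini-Hochberg). The fit was also run on simulated counts with less spread than these data, fewer changed genes and no reads traded between targets. That run cannot show how often calls are wrong here. SE is the log2 fold change over the root of its F statistic. With 2 libraries a group, p-values borrow the spread across genes (biological coefficient of variation 0.36). Counts within groups differed by more than sampling noise (chi-square per degree of freedom 138 in tumor and 93.9 in control). DESeq2 1.42.0 and limma 3.58.1 served for alternatives, limma also on log2 values of the deposited TPM. Sums, ratios and figures were made in Python 3.11.15. Members and lists were chosen with earlier results of these data known. Genes were named by level and change within each complex, with every -like gene at 10 counts or more and up to 3 called genes of each further list; ATPsynG, ATPsynD, ND-75, ND-20, ND-24, ND-39, COX5A, UQCR-11, UQCR-Q, TFAM, ewg, sun, Cyt-c-p, single markers and neighbouring genes were named after their values were seen.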

Additional observations from a re-analysis of the deposited data

How the results depend on the processing

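Scaling, overlap and the small number of libraries set the limits. Against 3 members higher and 18 lower, there were 5 higher under library totals and under DESeq2, 7 on log2(TPM + 0.1), log2(TPM + 1) and log2(TPM + 5), 6 on unfiltered log2(TPM + 1), 17 under ribosomal protein scaling, 7 by locus sum, and 1 and 6 at adjusted p of 0.01 and 0.1. Lower were 2 under ribosomal protein scaling, 11 on log2(TPM + 0.1) and on unfiltered log2(TPM + 1), and 8 at adjusted p of 0.01. Shares of all genes at adjusted p of 0.01 and 0.1 were not worked out, so the counts at those thresholds have nothing to be read against. Among 11 tested members holding at least 75% of their locus 1 was higher and 6 lower, where 23.4% and 21.2% of all genes were. Over locus sums of all members, of which 81 were tested, 11 were higher and 42 lower, where 27.9% and 27.5% of all locus sums were. Both counts were added after the data were seen. Leaving out 1 library gave 1 to 2 higher and 4 to 17 lower.

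The median of ubiquitous members (-0.31) was -0.42 under upper-quartile factors, -0.21 under library totals, 0.34 under ribosomal protein scaling, and -0.068, -0.067, -0.065 and -0.045 on log2(TPM + 0.1), log2(TPM + 1), log2(TPM + 5) and unfiltered log2(TPM + 1); leaving out 1 library gave -0.37 to -0.30. That of -like members (-0.75) was -0.86, -0.65, -0.11, -0.49, -0.43, -0.32 and 0.025 under the same settings in that order, 0.58 with no count filter, 0.15 by locus sum, and -0.82 to -0.63 without 1 library.

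Under ribosomal protein scaling the sign turned for ND-MLRQ (0.16), ND-B14 (0.0099), ND-49 (0.38), SdhA (0.50), SdhC (0.64), UQCR-C1 (0.61), UQCR-C2 (0.44), UQCR-14 (0.40), UQCR-6.4 (0.53), COX4 (0.35), COX7B (0.12), COX8 (0.36), ATPsynO (0.34), ATPsyngamma (0.078), blw (0.012), Cyt-c1 (0.12), Marf (0.28), Scox (0.32), Sdhaf3 (0.14) and PolrMT (0.018). By locus sum it turned for ND-B12 (0.32), ND-13B (-0.38), ND-49 (0.11), SdhA (0.39), SdhC (0.011), COX4 (0.033), COX7CL (0.34), Sdhaf3 (0.24), Ant2 (-1.06), mtSSB (0.13) and mt:ND3 (-1.16). On log2(TPM + 1), filtered or not, and on log2(TPM + 0.1) it turned for SdhA (0.099), SdhC (0.24), UQCR-C1 (0.20), UQCR-C2 (0.041), UQCR-6.4 (0.12) and UQCR-14 (0.00088 and 0.00089), and on log2(TPM + 5) for the same genes (0.097, 0.23, 0.20, 0.0402, 0.11 and 0.00084). It turned for SdhC under library totals (0.0897) and without tumor 2 or control 1 (range without 1 library -0.071 to 0.049), and for UQCR-C1 under library totals (0.057). The cause was not tested beyond the construction of each setting. With replicate number as a block, 3 members were higher and 15 lower, of which 2 and 13 were calls of the fit without it. Same-numbered libraries did not deviate together (r = -0.01 across genes). With 2 libraries in each group this cannot show whether same-numbered libraries were prepared together.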
